A study of Mus musculus with 12 samples.

Results

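Crystallins are the abundant soluble proteins of the eye lens. The alpha-crystallins are small heat shock proteins that keep other proteins from aggregating, and the beta- and gamma-crystallins are related structural proteins that pack densely in lens fibre cells. In the retina, alphaB-crystallin is made by glia and by neurons under stress, and transcripts of several lens crystallins have also been described there. Retinal dissection removes the lens from the eye, so that retinal RNA can also hold lens RNA.

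The 9 crystallin genes described here were Cryaa and Cryab (alpha-crystallins), Cryba1, Cryba2 and Cryba4 (acidic beta-crystallins), Crybb1, Crybb2 and Crybb3 (basic beta-crystallins) and Crygs (gammaS-crystallin), selected by gene symbol from the 54532 genes in the tables. All 9 had counts in the retina, and 4 of them (Cryab, Crybb1, Crybb2 and Crybb3) passed the expression filter of the test across all genes. RNA was sequenced from retinas of 13-week-old wild type C57BL/6 mice in 4 groups with 3 libraries each. SHAM mice were the sham controls. MOG mice were immunized with the MOG35-55 peptide of a myelin protein, which induces experimental autoimmune encephalomyelitis with optic neuritis. GB20 and GV16 mice had the same immunization and were needled under anesthesia at acupoint GB20 or at the control acupoint GV16. The mice were female. The sources used here do not say what the sham controls received or whether MOG mice were anesthetized. Per the study's methods a group held several mice in each repeat of the experiment and RNA was taken per group, which leaves unstated how many mice stand behind a library. The p-values measure only the spread between libraries.

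Between 15860278 and 19194280 reads per library were counted on genes. A set of 9 rod photoreceptor genes summed to between 26366 and 29788 CPM (reads relative to library size, with TMM scaling) in every library. SHAM replicate 2 and GB20 replicate 2 stood apart from the other libraries of their groups: their deviations from the group mean rose with the GC content of the genes (Spearman correlation over 15630 genes of 0.319 and 0.358), whereas the correlation lay between -0.266 and 0.0471 in the other 10 libraries. These were also the 2 libraries with the most lens crystallin reads. The crystallin comparisons are therefore also given without them, and the part of GC content in the crystallin counts was not tested.

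Compared per gene length, Cryab was by far the most expressed crystallin of the retina. Its FPKM (reads scaled by gene length and library size) lay between 12.2 and 18.8 with a mean of 14.8 ± 2.16 (SD, n = 12), and 3537 genes had a higher median FPKM. The next in order of median FPKM were Crybb1 (0.404), Crybb3 (0.342) and Cryba4 (0.165). Cryba1 (0.0760), Crygs (0.0633), Cryba2 (0.0517) and Crybb2 (0.0455) followed, and Cryaa was last with a median of 0. The ranges over the 12 libraries overlapped between every neighbouring pair below Cryab, from 0.0558 to 0.888 FPKM in Crybb1 and from 0 to 2.81 FPKM in Cryaa. Only Cryab was separate from the next gene in all libraries. Over the 10 libraries other than SHAM replicate 2 and GB20 replicate 2, Cryba2 (0.0513) came before Cryba1 (0.0375) and Crygs (0.0314).

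**Figure D1:**
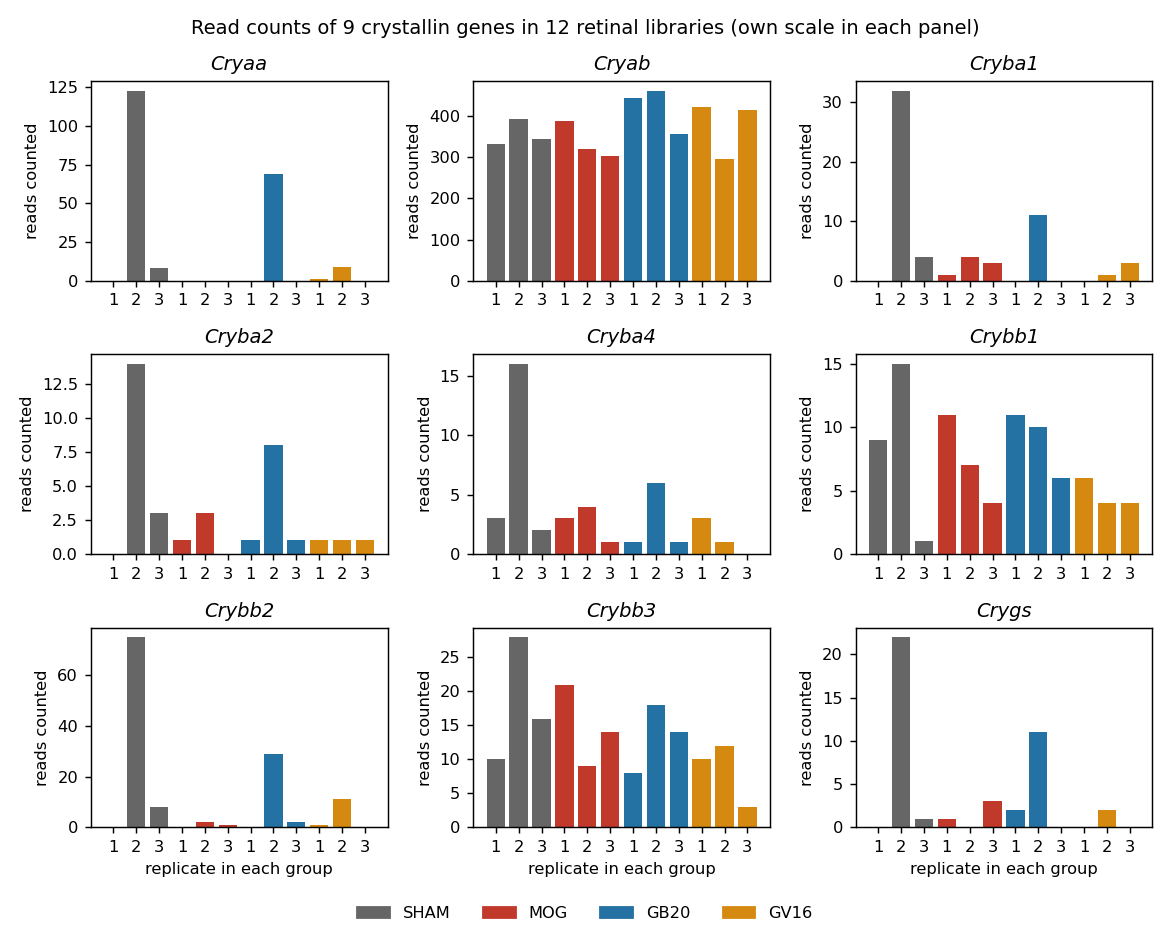
Reads counted for each crystallin gene (vertical axis, own scale in each panel) in the 3 replicates of SHAM, MOG, GB20 and GV16 (horizontal axis, bars coloured by group). Cryab lies between 294 and 461 reads in every library, while Cryaa reaches 123 reads in SHAM replicate 2 and 69 in GB20 replicate 2 and at most 9 elsewhere.

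Cryaa encodes alphaA-crystallin, the alpha-crystallin that is largely restricted to the lens. It lies at chr17:31677807-31681733 on the plus strand (GRCm38). It had 0, 123 and 8 reads in SHAM replicates 1 to 3, 0 reads in every MOG library, 0, 69 and 0 reads across GB20 and 1, 9 and 0 reads across GV16. SHAM and GB20 were thus each carried by 1 library, with 93.9% of the SHAM reads (exact 95% interval 88.3 to 97.3%) and 100% of the GB20 reads (94.8 to 100%) in replicate 2. With a floor of 3 reads set over the MOG libraries, the ratio of pooled levels was 43.0 for SHAM over MOG. Without SHAM replicate 2 it was 3.92, from 8 reads that all lay in SHAM replicate 3, while SHAM replicate 1 had 0 like every MOG library. The floor stands for the MOG zeros only, and the counting error of the SHAM reads is not in these ratios. Cryaa did not pass the expression filter, and with no filter its adjusted p was 0.649 for MOG vs. SHAM in the edgeR quasi-likelihood test. Part of its exons (13.2%) overlaps the antisense gene AC090881.2, and reads of the 2 genes cannot be told apart if the counting ignored strand.

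Cryab encodes alphaB-crystallin, a chaperone that is induced by stress in many tissues and whose loss has been studied in experimental autoimmune encephalomyelitis. It lies at chr9:50751325-50756636 on the plus strand. Its CPM were 20.04, 23.0 and 19.03 in SHAM, and 21.7, 19.7 and 18.2 in MOG. They were 22.8, 28.03 and 21.7 in GB20, and 26.1, 18.9 and 25.7 in GV16. The SHAM and MOG libraries overlapped. All GB20 libraries lay above all MOG libraries, by 21.68 against 21.66 CPM at the closest pair, whereas 1 GV16 library lay within the MOG range.

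Between MOG and SHAM, Cryab differed by less than the spread between libraries. The group means were 20.7 ± 2.06 CPM in SHAM and 19.8 ± 1.74 in MOG (SD, n = 3), and the log2 fold change was -0.059 (SE 0.13, 95% interval -0.35 to 0.23, edgeR adjusted p = 0.880). The needled groups had means of 24.2 ± 3.40 CPM (GB20) and 23.6 ± 4.06 CPM (GV16). GB20 vs. MOG had a log2 fold change of 0.28 (SE 0.12, interval -0.0055 to 0.57), with an unadjusted p of 0.0340 and an edgeR adjusted p of 0.574. The interval rests on fewer degrees of freedom than this unadjusted p and includes 0. GV16 vs. MOG had a log2 fold change of 0.25 (SE 0.13, interval -0.040 to 0.54, edgeR adjusted p = 0.957). Neither difference passed the test. The 2 needling sites could not be told apart, with a log2 fold change of 0.033 between GB20 and GV16 (SE 0.12, interval -0.25 to 0.32, edgeR adjusted p = 0.9999). The exons of Cryab overlap those of Hspb2 on the other strand by 252 bases (17.04% of its exonic bases), and Hspb2 itself had between 0 and 8 reads.

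**Figure D2:**
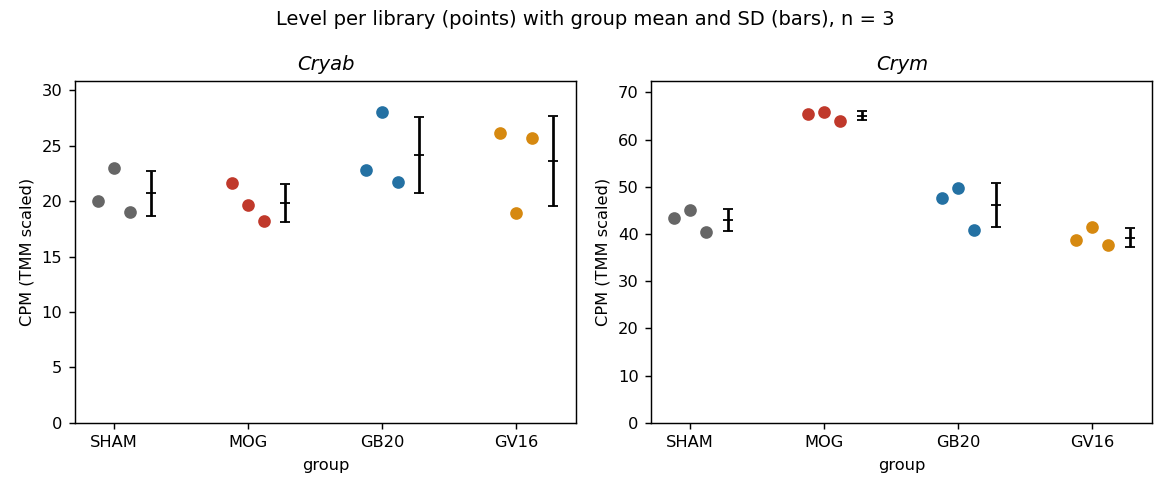
CPM of Cryab (left) and of Crym, a retinal gene that shares the crystallin name (right), by group, with 1 point per library and the group mean with its SD beside the points (n = 3). Cryab lies between 18.2 and 28.03 CPM with overlapping SHAM and MOG libraries, while the 3 MOG libraries of Crym, at 64.0 to 65.8 CPM, lie above all other libraries.

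The acidic beta-crystallins were near the limit of counting. Cryba1, which is also known from retinal astrocytes and pigment epithelium, had 0, 32 and 4 reads across SHAM, 1, 4 and 3 across MOG, 0, 11 and 0 across GB20, and 0, 1 and 3 across GV16. Cryba2 had 0, 14 and 3 reads across SHAM, 1, 3 and 0 across MOG, 1, 8 and 1 across GB20, and 1, 1 and 1 across GV16. Replicate 2 was the highest library of its group for both genes in SHAM and GB20. Cryba4 had 3, 16 and 2 reads across SHAM, 3, 4 and 1 across MOG, 1, 6 and 1 across GB20, and 3, 1 and 0 across GV16. None of the 3 passed the filter, and all groups overlapped for Cryba1 and Cryba4. For Cryba2 the groups overlapped as well, with at most 3 reads in every library other than the same pair.

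The basic beta-crystallins fell into different patterns. Crybb1 lies beside Cryba4 on chromosome 5, with 3296 bases between the 2 genes, which are read away from each other. It had 9, 15 and 1 reads across SHAM, 11, 7 and 4 across MOG, 11, 10 and 6 across GB20, and 6, 4 and 4 across GV16. Crybb3 had 10, 28 and 16 reads across SHAM, 21, 9 and 14 across MOG, 8, 18 and 14 across GB20, and 10, 12 and 3 across GV16. Both genes thus had reads in all 12 libraries, and the highest library of SHAM held 51.9% of the SHAM reads of Crybb3. Crybb2, whose product has been linked to axon growth of retinal ganglion cells, lies 5721 bases from Crybb3 on the same strand. It had 0, 75 and 8 reads across SHAM, 0, 2 and 1 across MOG, 0, 29 and 2 across GB20, and 1, 11 and 0 across GV16, so that replicate 2 was the highest library of each group. Unlike Crybb3, it had 80.6% of all its reads in SHAM replicate 2 and GB20 replicate 2, and it passed the filter through the libraries in which it was high.

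Crygs, the gamma-crystallin that is kept in the adult lens cortex, had 0, 22 and 1 reads across SHAM, 1, 0 and 3 across MOG, 2, 11 and 0 across GB20, and 0, 2 and 0 across GV16. It followed Cryaa and Crybb2 in the libraries in which it was high. Of 7 other gamma-crystallins measured for comparison, 3 were also highest in SHAM replicate 2. Crygb had 9 reads in SHAM replicate 2, 4 in GB20 replicate 2 and at most 1 elsewhere, and Crygd had 10, 3 and 0. Crygc had 5 reads in SHAM replicate 2 and none in GB20 replicate 2, while Cryge and Crygf were at 0 in all libraries. Cryga had at most 2 reads in any library and 0 in SHAM replicate 2. Crygn did not follow these genes: 23.1% of its 26 reads lay in the 2 libraries, its highest library held 7 reads and was one of the other 10, and its median there was 2 reads. Several of these genes are close copies of each other, so that the assignment of reads among them is uncertain.

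SHAM replicate 2 and GB20 replicate 2 together held 487 of the 766 reads of the 8 crystallins other than Cryab (63.6%), where an equal share of 2 of 12 libraries would be 16.7%. The share differed from gene to gene. It was 91.4% in Cryaa, 80.6% in Crybb2, 78.6% in Crygs, 72.9% in Cryba1, 64.7% in Cryba2 and 53.7% in Cryba4. It was 28.4% in Crybb1, 28.2% in Crybb3 and 19.1% in Cryab. The summed level of the 8 genes was 19.1 CPM in SHAM replicate 2 and 9.85 CPM in GB20 replicate 2, against 0.681 to 2.64 CPM in the other 10 libraries. SHAM replicate 3 and GV16 replicate 2 followed with 43 and 41 reads, and the 4 libraries with at least 8 reads of Cryaa were the same 4 that had at least 8 reads of Crybb2.

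Few genes shared this pattern. Of 18506 genes with at least 5 reads in both libraries, 5 had at least 2 times the CPM of every other library in both. The limits were chosen after the values were seen, and the 2 libraries were picked for their crystallin reads. That the 5 genes are crystallins is therefore no independent evidence. The limit of 5 reads left out Crygb (9 and 4 reads) and Crygd (10 and 3). The 5 genes were Cryaa, Crybb2, Cryba1, Crygs and Cryba2. Their lower value of the 2 libraries was between 2.49 (Crybb2) and 7.25 times (Cryaa) the highest of the other 10. Their transcripts had a GC content from 44.3% (Cryba1) to 58.4% (Cryba2), with a median of 49.8% over the genes used for the GC values above. In the remaining crystallins it was 53.4% (Cryab), 58.8% (Cryba4), 61.9% (Crybb1) and 60.3% (Crybb3).

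Other genes of the lens stayed near the limit of counting in these libraries as well. Of 13 lens genes other than crystallins, Dnase2b and Lctl were at 0 in all libraries. The lens membrane protein gene Mip had 0 reads in SHAM replicate 2, 4 in GB20 replicate 2 and between 0 and 6 elsewhere, and Lim2 and Gja3 had at most 3 reads in any library. In the same 2 libraries Bfsp1 had 9 and 16 reads (median of 6 in the other 10 libraries), Lenep 4 and 7 (2) and Grifin 3 and 5 (1). These genes reached their highest counts in GB20 replicate 2. Bfsp2 had 5 and 7 reads (6.5), Lgsn 2 and 2 (2.5) and Birc7 0 and 2 (0.5). Leaving out Tmod1 and Col4a3, which the retina also expresses, the 11 other lens genes summed to 26 reads in SHAM replicate 2 and 45 in GB20 replicate 2, and to between 16 and 35 in the other 10 libraries. By group the sum ranged from 24 to 26 reads in SHAM, 22 to 28 in MOG, 24 to 45 in GB20 and 16 to 21 in GV16. The 6 cornea genes summed to between 3 and 20 reads per library. The highest sum was in SHAM replicate 2, followed by 18 reads in MOG replicate 3, while GB20 replicate 2 had 6. Of the 6 ciliary body and iris markers, Optc had 73 reads in SHAM replicate 2 and 84 in GB20 replicate 2. Its median in the other 10 libraries was 28, and 1 of them had 98. Wfdc1 had 83 and 64 reads (median of 52.5 in the other 10), Myh11 41 and 32 (30.5) and Zic1 106 and 118 (104). Tfap2b had 2385 and 2751 (2738) and Cldn1 9 and 13 (18). The part of lens, cornea, ciliary body, iris or pigment epithelium RNA in the crystallin counts was not tested.

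**Figure D3:**
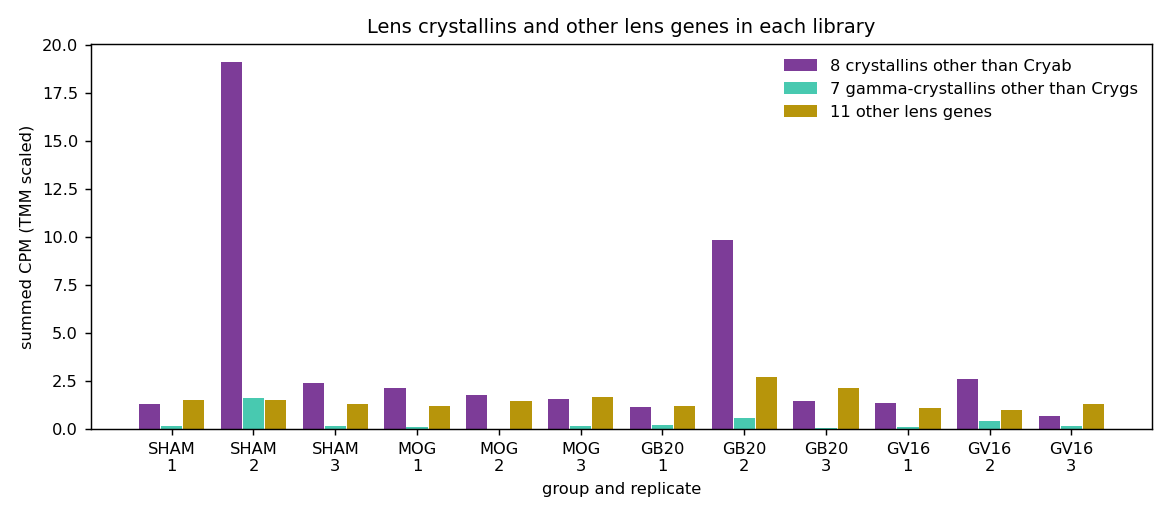
Summed CPM (vertical axis) of the 8 crystallins other than Cryab, of 7 gamma-crystallins other than Crygs, and of 11 other lens genes (bars) in each library (horizontal axis). The crystallin sums reach 19.1 CPM in SHAM replicate 2 and 9.85 CPM in GB20 replicate 2 and stay at or below 2.64 CPM elsewhere. The 7 gamma-crystallins reach 1.65 CPM in SHAM replicate 2 and 0.608 CPM in GB20 replicate 2 and stay at or below 0.450 CPM elsewhere, while the 11 other lens genes stay between 1.03 and 2.74 CPM in all libraries.

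The mix of crystallins in the 2 libraries could not be told apart within counting error, which was wide for the genes with few reads. Cryaa made up 37.8% of the reads of the 8 genes in SHAM replicate 2 (exact 95% interval 32.6 to 43.4%) and 42.6% in GB20 replicate 2 (34.9 to 50.6%). Crybb2 made up 23.1% (18.6 to 28.05%) and 17.9% (12.3 to 24.7%). The ratio of CPM between SHAM replicate 2 and GB20 replicate 2 was 1.72 for Cryaa (exact 95% interval 1.27 to 2.35), 2.50 for Crybb2 (1.61 to 3.98) and 2.81 for Cryba1 (1.38 to 6.19). The intervals of all 8 genes overlapped. Cryab went the other way with a ratio of 0.820 (0.715 to 0.941). That ratio lies below the intervals of Cryaa, Crybb2, Cryba1, Cryba4 and Crygs and within those of Cryba2, Crybb1 and Crybb3. These intervals cover counting error only.

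**Figure D4:**
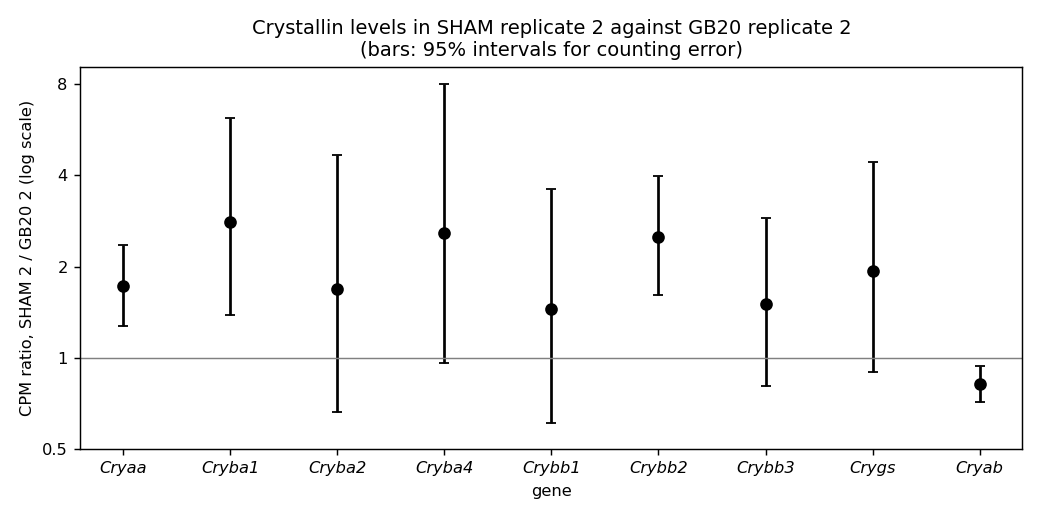
Ratio of CPM between SHAM replicate 2 and GB20 replicate 2 (vertical axis, log scale) for each crystallin (horizontal axis), with exact 95% intervals for counting error (bars). The 8 crystallins other than Cryab lie between 1.45 and 2.81 with overlapping intervals, and Cryab lies at 0.820.

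The 250 bases before the start sites of the crystallins were read from RefSeq (GRCm38.p6), which matched 8 of the 9 genes. Cryab had no entry. The windows of Cryaa, Crybb1 and Crygs overlap exons of the gene annotation. Matches in these windows therefore need not lie before the annotated gene. Lens crystallin promoters are bound by Maf factors, whose half-site is TGCTGA. It was present on either strand in 7 of the 8 windows, against 16.1% of the 32536 distinct windows of all genes, and was absent from Crybb2. The 7 include Crybb1 and Crybb3, which had 28.4% and 28.2% of their reads in SHAM replicate 2 and GB20 replicate 2. The TATA box TATAAA was present in 3 (Cryba1, Crybb1 and Crygs), against 12.3% of all windows. A core of the heat shock element, GAA followed by any 2 bases and TTC, was in none of the 8, against 6.72%, and the other order, TTC followed by any 2 bases and GAA, was in 1 (Cryba1), against 7.19%. These matches are a description of the letters only. The windows of 4 genes with their highest counts in SHAM replicate 2 and GB20 replicate 2, and with no annotated exon in the window, are shown. For Cryba4 this rests on 6 reads in GB20 replicate 2 against at most 4 in the other 10 libraries. It was not among the 5 genes above. The windows run 5′ to 3′ on the strand of the gene, with TGCTGA (or TCAGCA, its form on the other strand) and TATAAA in capitals. Cryba1 is at chr11:77725294-77725543, Cryba2 at chr1:74893144-74893393, Cryba4 at chr5:112252519-112252768 and Crybb2 at chr5:113070118-113070367, all on the minus strand.
Cryba1: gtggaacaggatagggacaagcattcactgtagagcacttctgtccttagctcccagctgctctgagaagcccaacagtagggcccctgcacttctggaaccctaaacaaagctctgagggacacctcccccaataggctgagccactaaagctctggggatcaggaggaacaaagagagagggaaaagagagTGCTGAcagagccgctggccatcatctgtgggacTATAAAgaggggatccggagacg
Cryba2: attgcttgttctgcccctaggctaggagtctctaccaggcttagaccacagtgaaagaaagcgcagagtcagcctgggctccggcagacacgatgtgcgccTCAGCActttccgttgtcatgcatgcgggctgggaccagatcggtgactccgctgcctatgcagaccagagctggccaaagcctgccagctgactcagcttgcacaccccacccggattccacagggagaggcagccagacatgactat
Cryba4: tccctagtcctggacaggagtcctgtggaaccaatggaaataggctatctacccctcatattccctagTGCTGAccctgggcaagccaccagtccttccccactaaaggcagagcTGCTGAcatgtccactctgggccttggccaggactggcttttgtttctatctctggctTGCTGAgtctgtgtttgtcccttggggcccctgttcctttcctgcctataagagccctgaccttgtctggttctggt
Crybb2: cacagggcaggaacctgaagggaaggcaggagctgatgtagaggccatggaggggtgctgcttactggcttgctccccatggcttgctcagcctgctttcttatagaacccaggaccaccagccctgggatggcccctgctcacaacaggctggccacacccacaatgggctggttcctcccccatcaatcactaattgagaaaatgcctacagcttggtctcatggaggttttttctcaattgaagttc

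The half-site lies 57 bases before the start in Cryba1 and 149 in Cryba2, counted from its first base on the strand shown. Cryba4 has 3 of them, at 77, 135 and 182 bases.

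For the effect of immunization, none of the 4 crystallins that passed the filter was called in MOG vs. SHAM, against 1.34% of the 18299 genes tested (edgeR, adjusted p under 0.05). At an unadjusted p under 0.05 the count was 0 as well, against 2380 of the 18299 genes. Crybb2 had the largest fitted difference, a log2 fold change of -4.61 (SE 2.28, edgeR adjusted p = 0.441), with means of 1.62 ± 2.43 CPM in SHAM and 0.0610 ± 0.0615 CPM in MOG (SD, n = 3). Without SHAM replicate 2 the value was -1.83 (edgeR adjusted p = 0.922). The groups overlapped, since SHAM replicate 1 had 0 reads. A replicate block called Crybb2 (log2 fold change -4.49, SE 0.75, edgeR adjusted p = 0.000962) and raised the genes called from 245 to 404. The numbers were not taken to pair the libraries in this comparison, with same-numbered pairs at r of -0.0987 to 0.0861. Crybb2 was highest in replicate 2 of each group. Crybb1 and Crybb3 had log2 fold changes of -0.17 and -0.28, both within 1 SE of 0, and without SHAM replicate 2 they were 0.56 and 0.21. With no filter on low counts, 0 of 9 were called, against 1.56% of 34538 genes. At an unadjusted p under 0.05 there were 2 (Cryba2 and Crygs), against 3459 of the 34538 genes. DESeq2 on the 6 libraries gave Cryaa and Crybb2 an unadjusted p under 0.05, against 1561 of 32299 genes. It called 0, but 5 of the 9 genes had no adjusted p and could not be called.

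Markers of retinal ganglion cells and of gliosis did change in the same comparison. All 14 markers of retinal ganglion cells fell in MOG, with a median log2 fold change of -0.90 (-0.0023 over all tested genes). The neurofilament genes Nefl and Nefh had log2 fold changes of -0.94 and -0.88, and Sncg of -0.93. Of 14 genes of reactive gliosis 9 rose, among them Fgf2 (1.13), Osmr (1.36) and Stat3 (0.71). Of 12 Müller cell markers 1 rose, the water channel gene Aqp4 (0.46), and none fell. Fewer cells of a type and less RNA per cell cannot be told apart in whole retina. The lists were chosen with earlier results known and are no independent evidence of direction. None of 9 rod, 9 pigment epithelium and 6 ciliary body and iris markers that were tested was called in any comparison, against 0.00546% to 1.34% of all tested genes. The summed level of 11 pigment epithelium and choroid genes still differed between groups. It was 20.3 to 27.9 CPM in SHAM, 36.9 to 51.5 in MOG, 39.2 to 46.5 in GB20 and 23.5 to 63.1 in GV16. The median log2 fold change of the tested ones was 0.28 in MOG vs. SHAM. Carry-over of pigment epithelium was not tested. With both SHAM replicate 2 and GB20 replicate 2 left out, 11 of the 14 ganglion cell markers fell, 10 of the 14 gliosis genes rose and 2 of the 12 Müller cell markers rose in MOG vs. SHAM.

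For needling, none of the 4 tested crystallins was called in GB20 vs. MOG (0.24% of all genes were) or in GV16 vs. MOG (0.164%). At an unadjusted p under 0.05 the counts were 1 (Cryab, above) and 0 with edgeR, 1 and 0 with DESeq2 and 1 and 0 with limma-voom. Over all 18299 genes edgeR had 1464 and 969 at this limit. Both comparisons share the MOG libraries. Crybb2 had log2 fold changes of 3.20 (SE 2.66, edgeR adjusted p = 0.798) in GB20 vs. MOG and 1.96 (SE 3.18, edgeR adjusted p = 0.998) in GV16 vs. MOG, and the first became -0.068 without GB20 replicate 2. Crybb1 had values of 0.25 and -0.55, and Crybb3 of -0.16 and -0.71, each with an SE between 0.47 and 0.65. GB20 and GV16 did not differ detectably from each other in any of the 4 genes (edgeR adjusted p = 0.9999 for each, 0.00546% of all genes called), with log2 fold changes of 0.80 in Crybb1, 1.24 in Crybb2 and 0.56 in Crybb3. With no filter on low counts, 0 of 9 were called in any of the 3 comparisons, against 0.405%, 0.211% and 0.0232% of genes. In each, 1 of the 9 had an unadjusted p under 0.05 (Cryab, Cryab and Crygs), against 2280, 1559 and 1075 of 34538 genes.

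**Figure D5:**
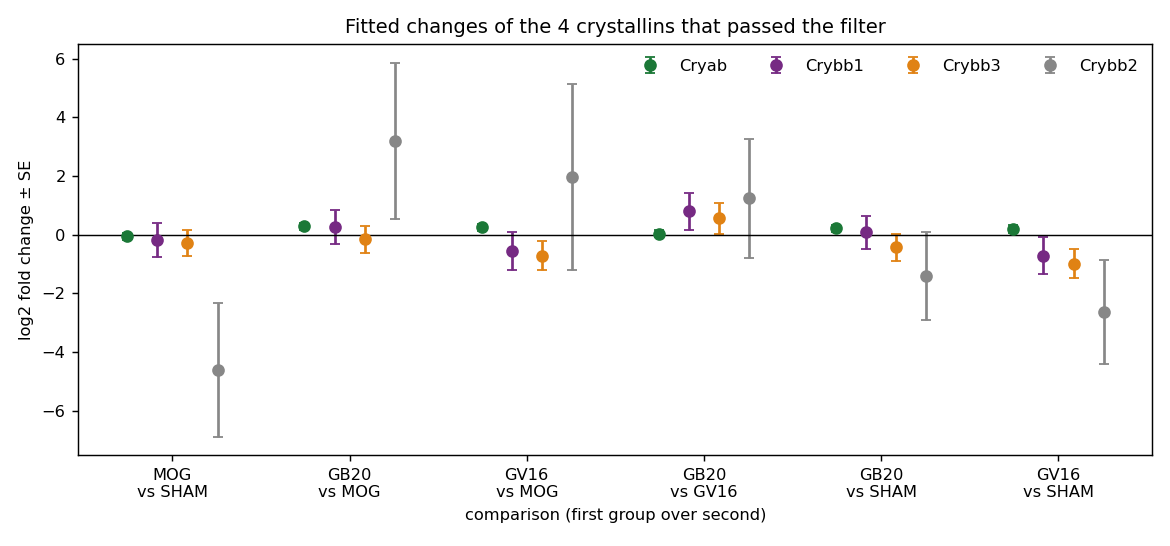
Fitted log2 fold change with its SE (vertical axis) of Cryab, Crybb1, Crybb3 and Crybb2 in 6 comparisons (horizontal axis, first group over second). Cryab lies between -0.059 and 0.28 with SEs of 0.12 to 0.13, whereas Crybb2 ranges from -4.61 to 3.20 with SEs of 1.503 to 3.18.

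The needled groups were also set beside SHAM, which shares its libraries with the first comparison. Without a replicate block, no crystallin was called in GB20 vs. SHAM (0.344% of all genes) or in GV16 vs. SHAM (0.656%). In edgeR 0 of the 4 had an unadjusted p under 0.05, against 1657 and 2001 of 18299 genes. Limma-voom called 0 as well. DESeq2 on 12 libraries called 0, but it gave no adjusted p for 6 of the 9 genes in GB20 vs. SHAM and for 8 in GV16 vs. SHAM, so that these could not be called. Cryab was at 0.22 (SE 0.12, edgeR adjusted p = 0.647) and 0.19 (SE 0.13, edgeR adjusted p = 0.614). Crybb3 was at -0.99 in GV16 vs. SHAM (SE 0.49, edgeR adjusted p = 0.481), with means of 0.526 ± 0.304 and 1.05 ± 0.538 CPM (SD, n = 3). For GB20 vs. SHAM the replicate numbers were taken to pair the libraries. A replicate block raised the genes called from 63 to 182 there, and 0 crystallins were among them. For GV16 vs. SHAM the numbers were not taken to pair the libraries, with same-numbered pairs at r of 0.0790 to 0.131. The block raised the genes called from 120 to 236 there and called Crybb2 (log2 fold change -2.60, SE 0.60, edgeR adjusted p = 0.0258). With no filter, 0 of 9 were called in either comparison, against 0.816% and 1.14% of genes. An unadjusted p under 0.05 was found in 1 (Cryab) and 5 (Cryba1, Cryba2, Cryba4, Crybb3 and Crygs), against 2482 and 2950 of 34538 genes. All 5 were lower in GV16 than in SHAM in these fits. With SHAM replicate 2 and GB20 replicate 2 left out and no filter, only Cryab had an unadjusted p under 0.05 in GV16 vs. SHAM. Crygs had the smallest adjusted p of these fits, 0.0870 in GV16 vs. SHAM, and its SHAM reads lay in replicate 2 except for 1.

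Leaving out both SHAM replicate 2 and GB20 replicate 2, which was chosen after the data were seen, left 2 of the 9 genes past the filter, Cryab and Crybb3. Neither was called in any comparison. Cryab had an unadjusted p under 0.05 in GV16 vs. MOG and in GV16 vs. SHAM, as did 1303 and 1758 of 18647 genes. Its edgeR adjusted p of 0.465 in GV16 vs. SHAM was the smallest. With no filter, 0 of 9 were called and the smallest was 0.204 (Cryaa, MOG vs. SHAM). In each comparison 1 or 2 of the 9 genes had an unadjusted p under 0.05, against 1086 to 2500 of 34033 genes. SHAM and GB20 then had 2 libraries each, and the spread was taken from all groups.

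Genes that share function or control with the crystallins did not pass the test. Over all 18299 genes the share called was 0.00546% to 1.34% in the 6 comparisons. For lists of this size, 0 calls lie near that share. Of the 7 other small heat shock protein genes 3 were tested (Hspb1, Hspb6 and Hspb8) and 0 were called in any comparison, with Hspb6 the highest at a mean of 77.3 CPM. None of 11 heat shock factor targets, such as Hsp90aa1 and Hspa8, was called. None of the 10 tested transcription factors that act on lens crystallin genes was called either, with Pax6 and Prox1 the highest at means of 307 and 192 CPM. Foxe3, a factor of the lens epithelium, was at 0 in all libraries. The median log2 fold change of heat shock factor targets was -0.14 in MOG vs. SHAM and 0.080 in GB20 vs. MOG, where those over all tested genes were -0.0023 and 0.00084.

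The genes most like Cryab over the 12 libraries, by Pearson correlation of log2 CPM among 16034 genes, were Tsc22d4 (r = 0.906), Ehd1 (0.891), Shisa2 (0.868), Chn1os3 (0.846) and Bzw2 (0.843). For Crybb1 they were Hyal2, Tk2, Atp5g2, Rbfa and Kcmf1, and for Crybb3 Prrt3, Zcchc18, Gpr27, Sppl3 and Slc38a10, both from low counts. For Crybb2 they were Tmem259, Acd, Plekhh3, Cnppd1 and Atf6b. The mean z score of the 4 genes was closest to Nudc, Pfn1, Llph, Rnf181 and Gnb2. No coefficient is given where 2 libraries set the pattern, and the values describe these libraries only, which share depth and GC differences.

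Among 7 genes that carry the crystallin name without being lens crystallins of the mouse, 6 were tested and only Crym was called. Crym encodes mu-crystallin, a ketimine reductase that binds thyroid hormone. Its CPM were 43.4, 45.1 and 40.3 in SHAM and 65.4, 65.8 and 64.0 in MOG. They were 47.6, 49.8 and 40.8 in GB20 and 38.6, 41.5 and 37.7 in GV16. The MOG libraries thus lay above all other libraries, while SHAM overlapped with both needled groups. The log2 fold change was 0.60 in MOG vs. SHAM (SE 0.081, edgeR adjusted p = 0.000186), -0.50 in GB20 vs. MOG (SE 0.080, edgeR adjusted p = 0.00407) and -0.73 in GV16 vs. MOG (SE 0.081, edgeR adjusted p = 4.03e-05), where the last 2 share the MOG libraries with the first. GB20 vs. GV16 was 0.23 (SE 0.082, edgeR adjusted p = 0.9999), with an unadjusted p of 0.00977. Neither needled group was called against SHAM, at 0.10 and -0.13. Without SHAM replicate 2 and GB20 replicate 2 the 3 called values were 0.64, -0.56 and -0.73, all called again. The enzyme crystallin Cryz, the quinone reductase zeta-crystallin, was not called in any comparison, with log2 fold changes from -0.24 to 0.21.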

How the data were processed

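Retinal libraries of SHAM, MOG, GB20 and GV16 (3 each) were grouped by their labels. The authors enriched polyadenylated RNA, aligned reads with HISAT2 2.0.5 (build mm10, per the labels' processing notes), counted them per gene with FeatureCounts and deposited the raw counts. FPKM values, which the authors computed from gene length and count, were deposited beside them. The sources used here do not state whether counting used strand or how multi-mapping reads were handled, so low counts of similar or overlapping genes are uncertain. Total counts were 15860278 to 19194280 per library, and 0 columns of samples were left unused.

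Counts were tested with edgeR 4.0.16 (R 4.3.3): expression filter by group, TMM scaling, robust quasi-likelihood fit of 1 mean per group over 12 libraries (8 residual degrees of freedom), and Benjamini-Hochberg adjustment over 18299 genes. A call had an adjusted p under 0.05. Intervals of log2 fold changes are estimates with their SE at 8 degrees of freedom. The edgeR p-values also draw on the spread of other genes and can rest on more degrees of freedom. An interval can therefore include 0 where the unadjusted p is under 0.05. Alternatives were DESeq2 1.42.0, limma 3.58.1 (voom, or log2(FPKM + 1) and log2(FPKM + 0.1)), other scalings and filters, a replicate block and leaving out libraries. The fits were tested on simulated data. Replicate numbers were taken to pair the libraries where the deviations of every same-numbered pair correlated above 0.1. This held in GB20 vs. SHAM (r = 0.128, 0.371 and 0.259 over 15644 genes), so its blocked counts stand beside it, and in no other comparison.

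Members and lists were chosen with earlier results of these data known. All 9 members are named in each comparison. From other lists, called genes are named (at most 3 by p), else at most 2 by mean CPM, and the 5 most alike genes needed a mean CPM of at least 1. Genes singled out beyond that, such as lens and gamma-crystallin genes, were chosen after their values were seen. The lens and rod lists each leave out 1 gene that is not reported here. Names and coordinates came from GENCODE vM21 on GRCm38 and promoters from RefSeq. Counting intervals are exact binomial at 95%. They and the floor of 3 counts cover counting error only.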

Additional observations from a re-analysis of the deposited data

How the results depend on the processing

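The number of crystallins called was 0 under each of the 19 alternatives in GB20 vs. MOG, GV16 vs. MOG, GB20 vs. GV16 and GB20 vs. SHAM. It was 1 (Crybb2) with the replicate block in MOG vs. SHAM and in GV16 vs. SHAM (log2 fold changes of -4.49 and -2.60, edgeR adjusted p of 0.000962 and 0.0258), and 0 under the other 18. The numbers were not taken to pair the libraries there: same-numbered pairs correlated at -0.0987 to 0.0861 in MOG vs. SHAM (3 of 6 libraries closest to their own number) and at 0.0790 to 0.131 in GV16 vs. SHAM (6 of 6), and the block raised the genes called from 245 to 404 and from 120 to 236. Crybb2 was highest in replicate 2 of each group. In DESeq2 up to 8 of the 9 genes had no adjusted p and could not be called. When 1 library was left out at a time it was 0 in each comparison. The block changed no other call of a crystallin. The direction of low genes rested on single libraries. When 1 library was left out at a time, the log2 fold change changed sign in these ranges: in MOG vs. SHAM -0.72 to 0.56 for Crybb1 and -0.58 to 0.21 for Crybb3, in GV16 vs. SHAM -1.27 to 0.0064 for Crybb1 and -5.41 to 0.13 for Crybb2, and in GB20 vs. SHAM -4.68 to 1.37 for Crybb2 and -0.75 to 0.044 for Crybb3, each turned by SHAM replicate 2. The range was -0.068 to 4.07 for Crybb2 in GB20 vs. MOG and -2.03 to 4.001 for Crybb2 in GB20 vs. GV16, turned by GB20 replicate 2, and -0.10 to 0.11 for Cryab in GB20 vs. GV16, turned by GV16 replicate 2. With both crystallin-rich libraries left out, Crybb3 had 0.21 in MOG vs. SHAM, and with no filter as well Crybb1 had 0.55 and Crybb3 0.20 in MOG vs. SHAM, and Crybb2 had -0.068 in GB20 vs. MOG, -2.02 in GB20 vs. GV16 and 0.13 in GV16 vs. SHAM. Other changes of sign were smaller than 1 SE and called in neither fit. Crym was called in 20 of 20 fits in MOG vs. SHAM and in GV16 vs. MOG, and in 18 of 20 in GB20 vs. MOG, where log2(FPKM + 1) and log2(FPKM + 0.1) gave -0.47 and -0.50 (limma adjusted p of 0.0788 and 0.0749). Over all genes the count called ranged from 56 to 539 in MOG vs. SHAM (245 in the report), 12 to 140 in GB20 vs. MOG (44), 9 to 144 in GV16 vs. MOG (30), 0 to 14 in GB20 vs. GV16 (1), 5 to 308 in GB20 vs. SHAM (63) and 7 to 395 in GV16 vs. SHAM (120). Correlations between crystallins over the 12 libraries were not computed, since 2 libraries stand apart from the other 10. Depth limits 8 of the 9 genes, with medians of at most 11 reads in the other 10 libraries.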
